A study of Glycine max with 12 samples.

Results

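Roots and leaves of the soybean (Glycine max) line OE-34, which overexpresses the CCCH zinc finger gene GmZF351, were compared with each other to ask which transcripts were restricted to a tissue in these plants and how strongly. The members were the 6 libraries of that line among the 12 of the study, namely 3 of root (OE root) and 3 of leaf (OE leaf). The remaining 6 libraries, 3 of root and 3 of leaf, came from Jack, the control plants without the added gene. All plants grew in pots and were cut at the V1 stage, with the first trifoliate leaf fully open, and total RNA was sequenced. The labels speak of biological repeats and say nothing of plants or pools, and p-values therefore cover only the spread among these libraries. OE-34 is a single transgenic line, and no source used here gives the promoter that drives its GmZF351.

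A leaf blade holds mostly photosynthetic cells, which fix carbon in chloroplasts and sense day length, while a root takes up water, phosphate and nitrate and meets soil microbes. In soybean and other legumes roots also carry the receptors that perceive signals of nitrogen-fixing rhizobia, and they release isoflavones, which act as signals to those bacteria. In RNA from whole organs, fewer cells of a type and less RNA per cell cannot be told apart.

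OE leaf libraries held 16892076 to 19041634 counts over 36459 to 36586 gene models, and OE root libraries 17801820 to 18686319 counts over 37857 to 37936. The first principal component of the 6 libraries held 97.3% of the variance and separated the tissues. Within a tissue each pair of replicates differed beyond sampling noise (chi-square per gene 4.14 to 5.64 for leaf pairs, 2.26 to 3.39 for root pairs). Each counted as its own sample, though this cannot show that they came from different plants. TMM scaling factors correct for libraries of unlike composition. They lay between 0.862 and 0.889 for OE leaf and between 1.345 and 1.352 for OE root. The tissues' markers fitted their labels. All 5 leaf markers with a name, which encode parts of the photosynthetic apparatus, were far higher in leaf, and the root markers NFR5A, NINA, IFS1 and IFS2 were all higher in root.

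The overexpressed gene itself was abundant in both tissues. GmZF351 (ZF351, Glyma.06G290100, chromosome 6, 47897433 to 47899059, minus strand, 1 exon) stood at 2293, 2430 and 2164 CPM (counts relative to the TMM-scaled library size) in OE leaf and at 1387, 1280 and 1398 CPM in OE root. Every leaf library lay above every root library. The log2 fold change of root over leaf (log2FC) was -0.76 (SE 0.0931, edgeR adjusted p = 7.39e-09). This difference depended on the scaling, since on total counts with no scaling factor it was -0.14 (edgeR adjusted p = 0.152). In Jack the 3 leaf libraries held 1 count of the gene in all and the 3 root libraries 4, so its tissue difference there could not be estimated.

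Most genes differed between root and leaf of OE-34. Of 35968 genes tested, 27819 (77.3%) passed an adjusted p under 0.05, 14375 of them (40%) higher in root and 13444 (37.4%) higher in leaf. Differences of at least 2-fold were found for 18493 genes (51.4%), with 9416 (26.2%) higher in root and 9077 (25.2%) in leaf. In edgeR's test against 2-fold, 15868 genes passed an adjusted p under 0.05, 7944 higher in root and 7924 in leaf. At least 10-fold differences were found for 7458 (20.7%), 3657 (10.2%) in root and 3801 (10.6%) in leaf. At least 100-fold differences were found for 3149 (8.76%), 1551 (4.31%) in root and 1598 (4.44%) in leaf. The median absolute log2FC over all genes tested was 1.08, with quartiles of 0.41 and 2.76. All 3 libraries of a tissue lay apart from all 3 of the other for 29095 genes (80.9%).

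The split of calls between the tissues rested on the scaling. The share of calls that were higher in root was 51.7% with TMM, 52.4% with DESeq2's size factors and 59.6% with upper-quartile scaling. With no scaling factor it was 70.2%, with 21293 of 30350 calls higher in root, and the median log2FC of all genes moved up by 0.62. Of the genes called with TMM, 836 were then called in the opposite direction. Directions of small differences are therefore relative to the bulk of the genes.

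Many of the largest folds were lower bounds. Among called genes, 1203 had no count in any OE leaf library and 595 had none in any OE root library, and a fitted fold for these depends on the prior count. With such genes set to the bound given by a floor of 3 counts per library, 1950 genes differed at least 100-fold, 743 higher in root and 1207 in leaf. At least 10-fold differences then numbered 6868, with 3206 in root and 3662 in leaf.

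**Figure D1:**
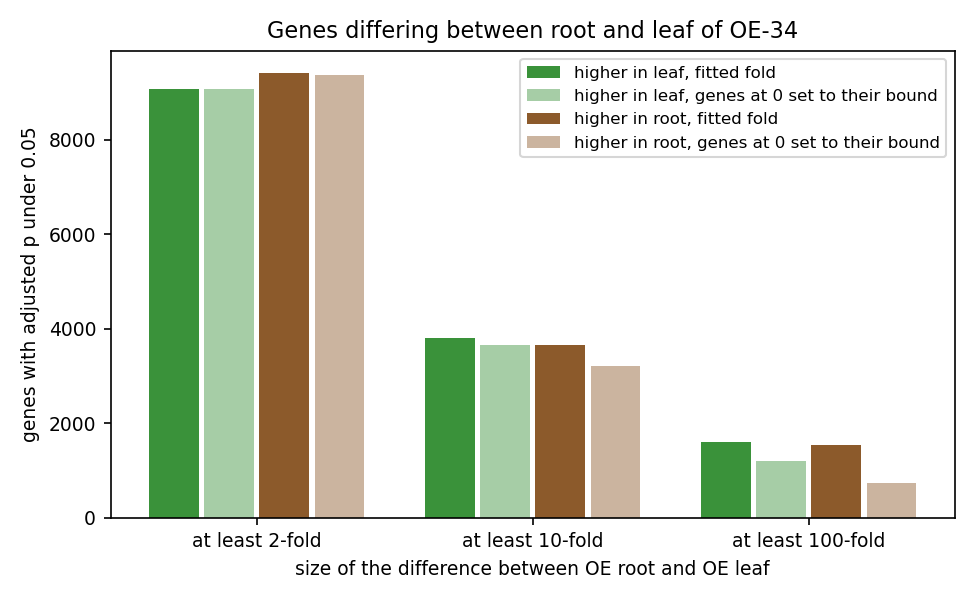
Number of called genes (vertical axis) by the least size of the root to leaf difference in OE-34 (horizontal axis), with leaf in green, root in brown and pale bars for genes at 0 set to their lower bound. At 100-fold the bound lowers the bars from 1551 to 743 in root and from 1598 to 1207 in leaf.

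These genes filled unequal parts of the libraries. Genes at least 100-fold higher in leaf took 30.5% to 32% of the counts of OE leaf libraries and 0.0663% to 0.0717% of those of OE root. Genes at least 100-fold higher in root took only 8.35% to 8.49% of OE root counts and 0.00918% to 0.00985% of OE leaf counts. At 10-fold the shares were 44% to 45.5% of leaf counts for the leaf genes and 17.1% to 17.4% of root counts for the root genes. These shares describe the same contrast that chose the genes.

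Strict restriction was defined as at least 30 counts in each library of a tissue and at most 3 in each library of the other. It held for 853 of 43517 gene models in leaf (1.96%) and 1473 in root (3.38%), of which 352 and 808 had no count at all in the other tissue. Leaf-restricted genes took 3.42% to 3.52% of OE leaf counts, and root-restricted genes 4.68% to 4.79% of OE root counts. The median level per length was 8.62 RPKM (CPM per kilobase of exon) for the leaf set in leaf and 4.7 for the root set in root. Models with a single exon entry made up 17.7% of the leaf set and 25.8% of the root set, against 12.2% of all genes tested. Entries were counted over all annotated transcripts of a gene. This share therefore mixes the number of exons with the number of annotated transcripts. The median exon length was 1474 bp and 1514 bp, against 1857 bp over all genes tested.

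Root-restricted genes often lay side by side. Of them 273 (18.5%) had a neighbouring gene model of the same set, against 6.58% of all gene models that had a neighbour in it. In the leaf set 69 genes (8.09%) did, against 3.87%. By chromosome, the root share ran from 2.33% of models on chromosome 14 to 4.3% on chromosome 9, and the leaf share from 1.45% on chromosome 20 to 2.74% on chromosome 12. Neighbouring copies can share reads that were not counted, so the values of such genes are uncertain. At the limit of the rule, 142 leaf and 199 root genes reached exactly 3 counts in their highest library of the other tissue, while 123 and 157 genes reached 4 and fell outside. In the same way 4 and 8 genes had 30 counts in their lowest library of the high tissue, and 9 and 13 had 29.

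Photosynthesis genes gave the scale of leaf restriction. All 5 with a name were higher in leaf, each at least 10-fold, with a median log2FC of -9.95, where the median of all genes tested was 0.06. The Rubisco activase gene RCA11, whose enzyme restores the activity of the carbon-fixing enzyme Rubisco (Glyma.11G221000, chromosome 11, 31621224 to 31624882), reached 15368, 15963 and 14592 CPM in OE leaf. In OE root it stood at 2.84, 1.83 and 3.74 CPM. The fold was 5450 (log2FC -12.41, SE 0.165, edgeR adjusted p = 7.06e-34). Even so RCA11 was not restricted by the count rule, since its root libraries still held 207 counts in all.

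RBCS2, for the small subunit of Rubisco (Glyma.19G046800, chromosome 19, 7253610 to 7254976) stood at 7608, 6305 and 5632 CPM in OE leaf and 4.92, 4.08 and 5.97 in OE root, 1310-fold lower. CAB3, which encodes a chlorophyll-binding antenna protein (Glyma.05G128000), stood at 4848, 6002 and 5598 CPM in leaf and 5.59, 6.28 and 5.53 in root, 944-fold lower. In both genes the tissues were far apart in every library. The second activase gene RCA14 had a log2FC of -9.95 (SE 0.143), and CHLI1A, for a subunit of the magnesium chelatase of chlorophyll synthesis, of -8.84 (SE 0.148, edgeR adjusted p = 7.33e-32). Per length, RCA11 at 8330 ± 370 RPKM and RBCS2 at 7400 ± 1100 RPKM in leaf (SD, n = 3) differed by less than the SD of RBCS2.

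Clock, light-sensing and flowering genes were mostly higher in leaf. Of 20 tested, 18 were higher in leaf, LUXB was higher in root and LUXC did not pass, and the median log2FC was -1.87, or -1.73 with genes at 0 set to their bound. These shares compare with 37.4% of all genes tested higher in leaf and 40% in root. Without any scaling factor PHYA2, PHYB and CRY2A were called higher in root, GIa (0.13, edgeR adjusted p = 0.195), ELF3A (0.25, 0.0815) and PRR3B (-0.07, 0.689) were not called, and LUXC was called higher in root (0.74, 0.0039). With upper-quartile scaling PHYA2, PHYB, CRY2A and ELF3A were not called. Names came from 23 genes, and the other 3, FT1A, FT5B and AP1A, had at most 2 counts in the OE libraries and were not tested. The labels give no time of day, on which clock transcripts depend.

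Members of the clock core differed by a few fold. LHY2b, a morning-phased repressor of the clock (Glyma.03G261800, chromosome 3, 45502100 to 45510812), stood at 2032, 1818 and 2036 CPM in OE leaf and at 250.7, 255.4 and 247.6 in OE root, a gap of 7.8-fold (log2FC -2.96, SE 0.0854, edgeR adjusted p = 1.99e-25). Its copies LHY2a, LHY1b and LHY1a followed with log2FC of -2.72, -2.24 and -1.50. LHY1a kept the highest root level of these, at 632.8, 661.9 and 639.6 CPM. In each of the 4 genes the leaf libraries all lay above the root libraries. PRR3B, a pseudo-response regulator, had a log2FC of -0.69 (SE 0.157), and GIa, the GIGANTEA gene of maturity locus E2, of -0.49 (SE 0.0962).

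Light receptor genes showed unequal steps. The blue light receptor gene CRY1A stood at 28.8, 22.3 and 28.5 CPM in leaf and 1.67, 1.22 and 1.43 in root (log2FC -4.20, SE 0.181), whereas CRY2A differed by only -0.23 (SE 0.0805, edgeR adjusted p = 0.0105). Among phytochromes, the red and far-red light receptors, PHYA3 had -2.63 (SE 0.139), PHYA1 -0.96, PHYA2 -0.40 and PHYB -0.22 (SE 0.0965, edgeR adjusted p = 0.0355). The PHYB call ended when any OE library other than leaf replicate 1 and root replicate 3 was left out, with edgeR adjusted p of 0.135 without leaf replicate 2, 0.0555 without leaf replicate 3, 0.09 without root replicate 1 and 0.125 without root replicate 2. RLE scaling (edgeR adjusted p = 0.0548), no filter on low counts (0.056) and a replicate block on all 12 libraries (0.0579) also ended the PHYB call. That of ELF3A, for a scaffold of the evening complex (log2FC -0.37), ended without leaf replicate 2 (edgeR adjusted p = 0.0514) or root replicate 1 (0.0758).

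Flowering regulators included the most leaf-bound genes of the group. COL2A, a CONSTANS-like gene (Glyma.08G255200, chromosome 8, 22599514 to 22602226), stood at 296.8, 296 and 266.4 CPM in leaf and 0.25, 0.367 and 0.279 in root. The fold was 960, with a 95% exact (Clopper-Pearson) counting interval of 634 to 1530 on 22 root counts. The florigen genes FT2A and FT5A encode products that move from leaf to shoot tip. Both genes were low in OE leaf, with 70 and 50 counts over 3 libraries (mean 1.47 and 1.045 CPM). Jack leaf held 677 and 1933 counts of them (mean 18.6 and 53 CPM). FT2A had no count in OE root and was at least 12-fold higher in leaf, while FT5A had 5 root counts (log2FC -3.81, SE 0.559, edgeR adjusted p = 2.68e-07). DT2, a regulator of stem growth, had -2.62 (SE 0.241). E1, a legume repressor of florigen, was at least 3.89-fold higher in leaf on 23 counts. LUXB, of the evening complex, ran the other way on 107 root counts against 2 (log2FC 4.91, SE 0.708, edgeR adjusted p = 1.83e-07).

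**Figure D2:**
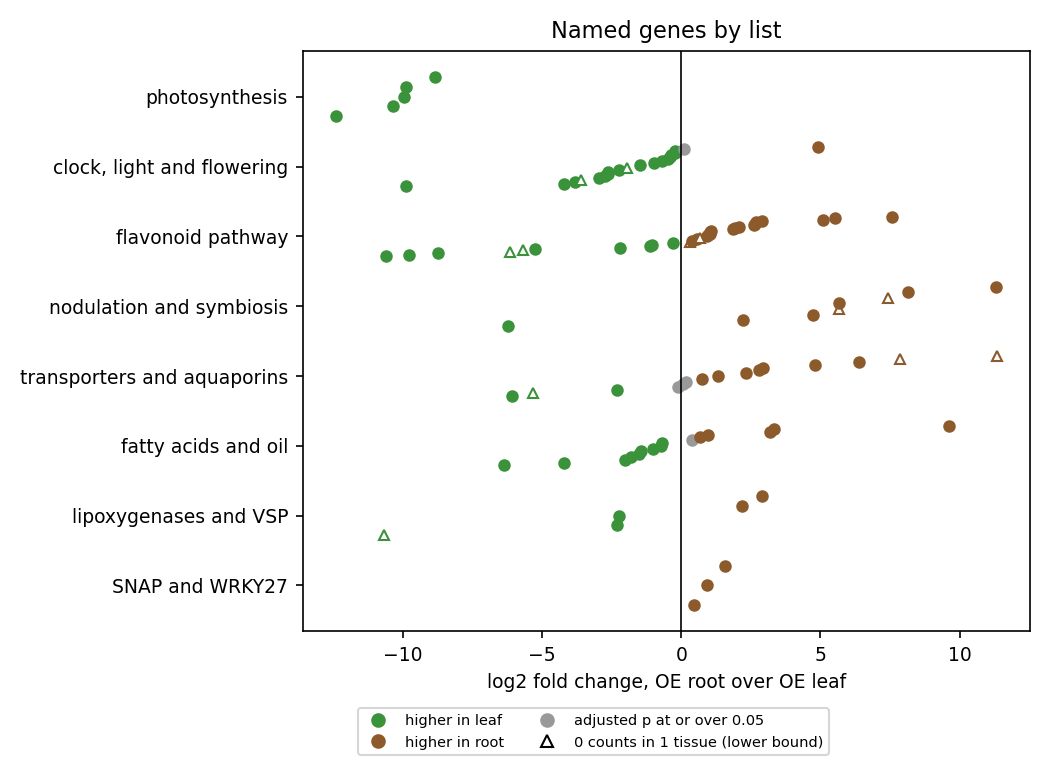
log2 fold change of OE root over OE leaf (horizontal axis) for each tested named gene, by list (vertical axis), with green points higher in leaf, brown points higher in root, grey points not past the threshold and open triangles at a lower bound. The 5 photosynthesis genes lie between -12.41 and -8.84, and 7 of 8 nodulation genes lie right of 0.

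Flavonoid genes were found on both sides. Of 29 tested, 19 were higher in root and 10 in leaf, with a median of 1.02, or 0.91 with genes at 0 at their bound, where 40% of all genes tested were higher in root and 37.4% in leaf. PAL2.2 was not called with upper-quartile scaling (-0.07, edgeR adjusted p = 0.384) and was higher in root without a scaling factor (0.32). CHR5, IFS1, IFS2 and G4DT, of the branch to isoflavones and the phytoalexin glyceollin, were among the root genes. FLS1, DFR2, ANS2 and ANS3, of flavonols and anthocyanins, were among the leaf genes. Copies of chalcone synthase, the entry enzyme, were found in both. DFR1 had 2 root counts and was not tested.

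Ahead of chalcone synthase, phenylalanine ammonia-lyase genes went both ways. PAL2.1 was at 1026, 1059 and 973.2 CPM in leaf and 504.2, 477.1 and 503.1 in root (log2FC -1.04, SE 0.0783), and PAL2.3, PAL2.2 and PAL1.3 were also higher in leaf, with -1.11, -0.30 and -2.20. PAL1.1, PAL1.2 and PAL3.1 were higher in root, with 1.08, 1.04 and 1.86. C4H, for the next enzyme, cinnamate 4-hydroxylase, had 0.95 (SE 0.0805, edgeR adjusted p = 1.65e-12), and its copy C4H1 had 1.02.

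Chalcone synthase copies were opposed. CHS13 (Glyma.19G105100, chromosome 19, 35466392 to 35469297) stood at 1640, 1703 and 1542 CPM in OE leaf and 1.92, 1.63 and 2.03 in OE root, a fall of 876-fold (log2FC -9.77, SE 0.133, edgeR adjusted p = 1.02e-33). CHS7 (Glyma.01G228700, chromosome 1, 55659010 to 55660950) stood at 13, 13.6 and 9.86 CPM in leaf and 433.8, 389.3 and 425.3 in root, 34-fold higher (log2FC 5.09, SE 0.108, edgeR adjusted p = 3.54e-29). CHS8 went with CHS7, at 2.07 (SE 0.0885), and CHS6, CHS11 and CHS10 had 1.94, 2.91 and 0.57. The CHS10 call ended without OE leaf replicate 1 (log2FC 0.27, edgeR adjusted p = 0.158). MYB176, a regulator of CHS8 in soybean root, had 0.91 (SE 0.081). Per length, CHS13 in leaf at 1060 ± 53 RPKM lay above CHS7 in root at 278 ± 16 RPKM (SD, n = 3).

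Isoflavone genes were higher in root without exception among those tested. The chalcone reductase gene CHR5, which directs the pathway to daidzein (Glyma.18G285800, chromosome 18, 56611460 to 56612978), stood at 1.44, 1.1 and 0.6 CPM in leaf and 201.3, 200.5 and 207.6 in root, 191-fold higher (log2FC 7.57, SE 0.14, edgeR adjusted p = 1e-30). Isoflavone synthase gene IFS1 (Glyma.07G202300) stood at 96.9, 100.2 and 86.5 CPM in leaf and 611.7, 599.8 and 612.6 in root, 6.41-fold higher. Its copy IFS2 had a log2FC of 2.63 (SE 0.0921). The chalcone isomerase genes CHI1A and CHI4A had 2.65 (SE 0.096) and 0.37 (SE 0.0789). G4DT, for the prenyltransferase of glyceollin synthesis, had 449 root counts against 6, a fold of 48.8 with an interval of 22.3 to 134. MYB29, a regulator of isoflavone genes, had no leaf count and only a few in root, at least 1.23-fold higher. Near-identical copies such as CHS7 and CHS8 or IFS1 and IFS2 are uncertain, since reads they share were not counted.

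Flavonol and anthocyanin genes were low or at 0 in root. The flavonol synthase gene FLS1 (Glyma.13G082300, chromosome 13, 19154278 to 19159357) stood at 390.1, 353.5 and 351.7 CPM in leaf and 0.25, 0.0815 and 0.358 in root, a fold of 1580 with an interval of 988 to 2720. SF3'H1, a flavonoid 3'-hydroxylase gene, had a log2FC of -5.24 (SE 0.192, edgeR adjusted p = 1.92e-22). The dihydroflavonol reductase gene DFR2 and the anthocyanidin synthase gene ANS3 had no root count and were at least 70.6-fold and 51.5-fold higher in leaf. ANS2 had 413 leaf counts against 1, a fold of 633 with an interval of 113 to 25100. DFR2, ANS2 and ANS3 met the count rule for restriction to leaf. ANR1, for the anthocyanidin reductase of proanthocyanidin synthesis, was at least 1.6-fold higher in root, with no leaf count.

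**Figure D3:**
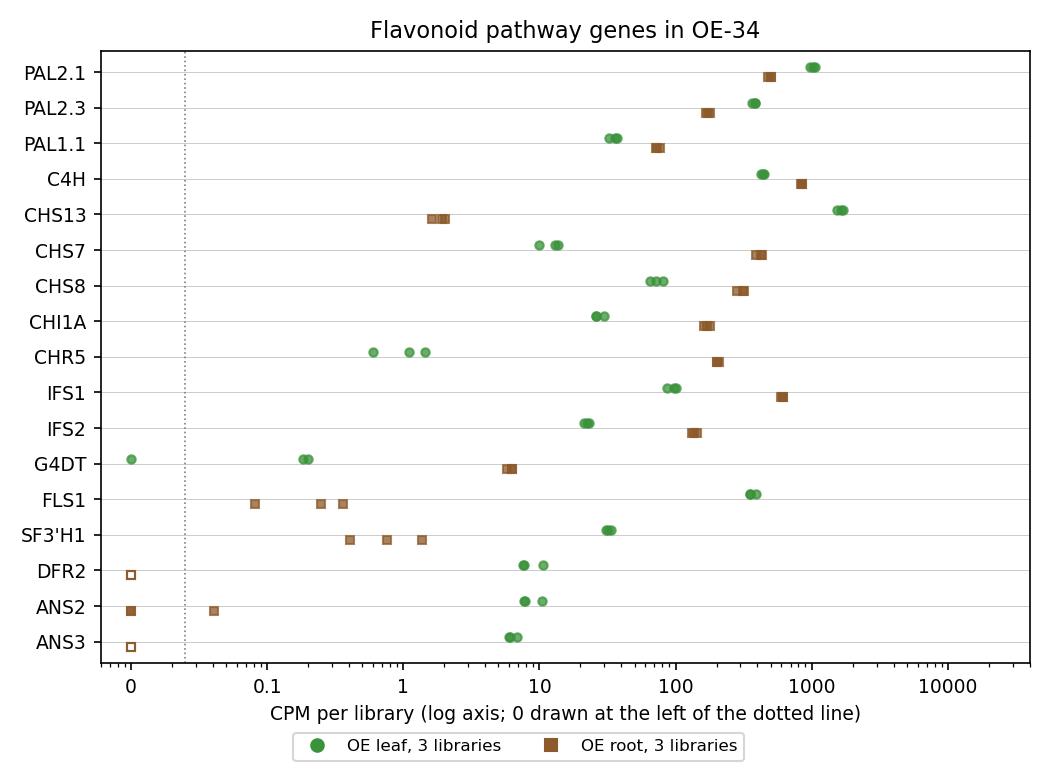
CPM of flavonoid genes in each OE-34 library on a log axis (horizontal), with 0 drawn left of the dotted line, green circles for the 3 leaf libraries and brown squares for the 3 root libraries, and genes in pathway order from top. CHS13, FLS1, DFR2, ANS2 and ANS3 have their leaf points far to the right, and CHS7, CHR5 and G4DT their root points.

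Genes of rhizobial signalling were higher in root. Of 8 nodulation genes tested, 7 were higher in root and 1 in leaf, against 40% and 37.4% of all genes tested. The median was 6.9, or 5.66 with genes at 0 set to their bound. The 3 leghemoglobin genes LBC1, LBC2 and LBC3, which carry oxygen in working nodules, had 0 counts in all 6 OE libraries, which allows up to 3 counts per library. NFR1B, a receptor gene, had 2 root counts and was not tested.

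The receptor gene NFR5A, whose kinase binds rhizobial Nod factor (Glyma.11G063100, chromosome 11, 4779592 to 4781813), lacked any leaf count and stood at 33, 31.6 and 31.2 CPM in OE root, at least 170-fold higher. The symbiosis receptor kinase genes SYMRKA and SYMRKB followed. SYMRKB had 9090 root counts against 2, a fold of 2970 with an interval of 821 to 24500. SYMRKA had a log2FC of 8.13 (SE 0.18, edgeR adjusted p = 2.13e-28). NINA, a transcription factor that starts nodule formation, had no leaf count and stood at 9.64, 10.4 and 8.32 CPM in root, at least 50.3-fold higher. NSP1A, another gene of the nodulation list, had a log2FC of 4.74 (SE 0.273).

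NARK, the leaf-acting receptor kinase that limits nodule number, was nonetheless higher in root, at 36.2, 37.8 and 37.2 CPM against 6.8, 8.04 and 9.06 in leaf (log2FC 2.22, SE 0.13, edgeR adjusted p = 9.56e-17). SS, a sucrose synthase gene known from nodules, stood at 8, 10.4 and 14.1 CPM in leaf and 522.8, 545.2 and 581.6 in root, 51.3-fold higher. UR9, for a uricase known from nodules, was the exception. It had 121 counts in leaf and 2 in root, a fold of 92.7 with an interval of 25.1 to 774.

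Nutrient transporter genes included some restricted to root and 1 restricted to leaf. Of 15 transporter and aquaporin genes tested, 9 were higher in root, 3 in leaf and 3 did not pass, with a median of 1.31. The share called is near that of all genes, of which 77.3% were called, 40% higher in root and 37.4% in leaf. The sugar transporter gene SWEET39 had 1 leaf count and was not tested. The phosphate transporter gene PHT1-14 (Glyma.02G005800, chromosome 2, 634487 to 639201) lacked any leaf count and stood at 484.9, 473.6 and 489.1 CPM in OE root, at least 2570-fold higher. The nitrate transporter gene NRT2 (Glyma.13G323800) had none in leaf either and stood at 42.5, 44.7 and 43.6 CPM in root, at least 232-fold higher.

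Phosphate transporter genes of the PHT1 family divided. PHT1-2 stood at 2.53, 1.83 and 1.73 CPM in leaf and 174.9, 163.7 and 173.8 in root, 83.7-fold higher (log2FC 6.38, SE 0.12, edgeR adjusted p = 1.38e-30). PHT1-9, PHT1-6, PHT1-7 and PHT1-5 were higher in root as well, with log2FC of 4.79, 2.95, 2.33 and 1.31. PHT1-1 and PHT1-10 were higher in leaf. PHT1-1 stood at 8.61, 11.2 and 8.79 CPM in leaf and 0.167, 0.0815 and 0.159 in root (log2FC -6.07, SE 0.275), next to PHT1-6 on chromosome 10. PHT1-10 had no root count and was at least 40.1-fold higher in leaf. Which neighbour carries which name is uncertain, since names rest on a span within 10%. The spans were 4199 and 4066 bp for PHT1-1 and PHT1-6, and 3999 and 3878 bp for PHT1-5 and PHT1-10.

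Sodium transporter and aquaporin genes were found on both sides. SOS1, for a sodium exporter of the plasma membrane, had a log2FC of 2.79 (SE 0.106), while NHX1, its vacuolar relative, had 0.07 (SE 0.0836, edgeR adjusted p = 0.437). Aquaporin gene PIP1-6 was higher in leaf (-2.31, SE 0.0907) and PIP2-10 higher in root (0.75, SE 0.101). PIP1-5 at -0.10 (edgeR adjusted p = 0.352) and PIP2-13 at 0.18 (0.111) did not pass, and PIP1-5 turned to 0.12 with upper-quartile scaling and 0.52 with none. PIP2-13 was called higher in root with upper-quartile scaling (0.40, edgeR adjusted p = 0.000668), with no scaling factor (0.80, 1.02e-08) and in the 6 OE libraries fitted alone (0.175, 0.0386). NHX1 was called higher in root with upper-quartile scaling (0.295, edgeR adjusted p = 0.00192) and with none (0.69, 4.37e-09).

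**Figure D4:**
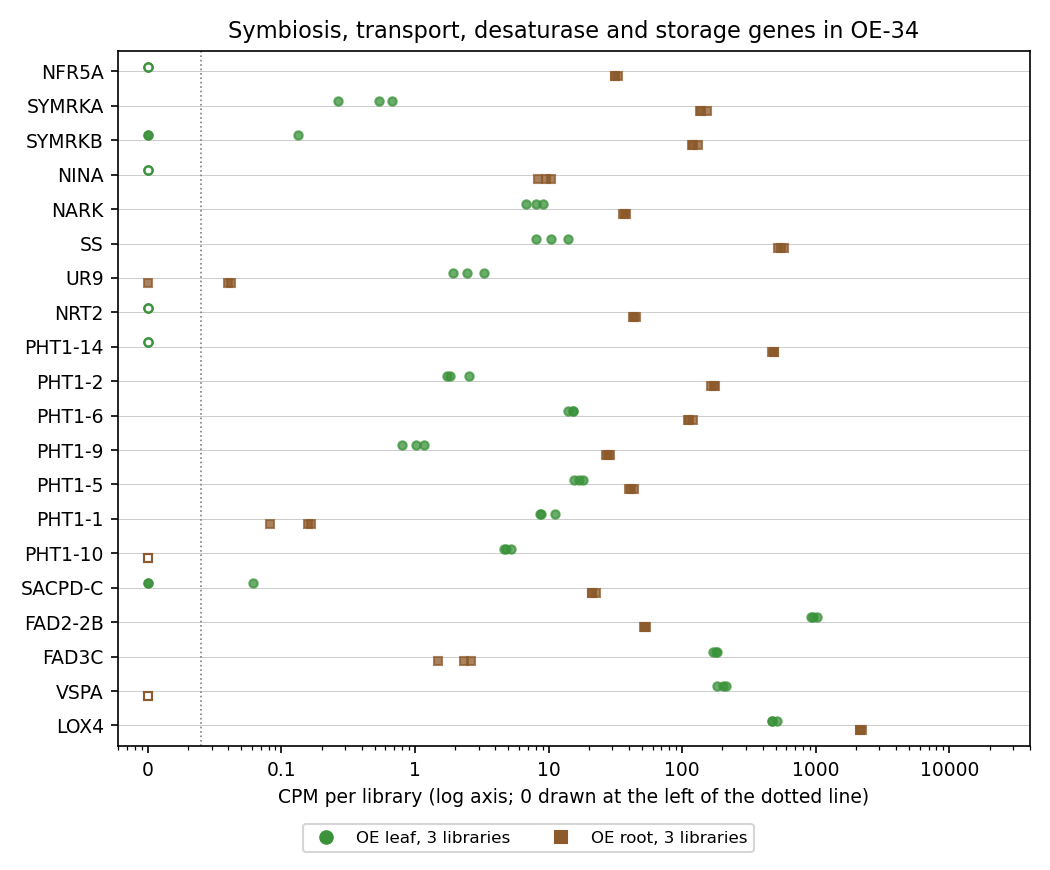
CPM of symbiosis, transport, desaturase and storage genes in each OE-34 library on a log axis (horizontal), with 0 drawn left of the dotted line, green circles for the 3 leaf libraries and brown squares for the 3 root libraries, and open symbols where all 3 are at 0. NFR5A, NINA, NRT2 and PHT1-14 have no leaf count, PHT1-10 and VSPA no root count.

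Of 15 oil and fatty acid genes tested, 9 were higher in leaf and 5 in root, with a median of -0.73, where 37.4% and 40% of all genes tested were. DGAT1C was not past the threshold (0.39, edgeR adjusted p = 0.132) and was called higher in root with upper-quartile scaling (0.61, 0.019) and with none (1.01, 0.000221). Of the 9 on the leaf side, 7 encode desaturases, and the others are the thioesterase genes FATB1a (-1.02) and FATB1b (-0.67). The linoleate desaturase gene FAD3C (Glyma.18G062000, chromosome 18, 5646502 to 5649337) stood at 179.2, 182.3 and 170.8 CPM in leaf and 2.63, 2.32 and 1.47 in root, 83.3-fold lower. Its copies FAD3B and FAD3A differed less, at -1.52 and -0.73, and FAD2-2C had -2.02. The oleate desaturase gene FAD2-2B stood at 1018, 947.3 and 914.5 CPM in leaf and 53.3, 52.3 and 51.4 in root, a gap of 18.4-fold (log2FC -4.20, SE 0.0912, edgeR adjusted p = 7.64e-29). Without a scaling factor FAD3A and FATB1b no longer passed, at -0.11 and -0.05.

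The stearoyl-ACP desaturase genes, which make oleate, were opposed. SACPD-B and SAD2 were higher in leaf, at -1.44 and -1.80. SACPD-C had 1593 root counts against 1, a fold of 1040 with an interval of 186 to 41100. The regulators of seed oil synthesis WRI1A and WRI1B were low and higher in root, at 3.33 (SE 0.268) and 3.18 (SE 0.399). DGAT1A and DGAT1B, for the last step of oil assembly, were higher in root by 0.66 and 0.97. The seed-type genes FAD2-1A, FAD2-1B and OLEO1 had few counts or none and were not tested.

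Lipoxygenase and storage genes showed a strongly leaf-bound member. Of 5 tested, 3 were higher in leaf and 2 in root, against 37.4% and 40% of all genes tested. LOX1, LOX2 and LOX3, of seeds, had 1, 5 and 0 counts in the OE libraries and were not tested. VSPA, for a vegetative storage protein of leaves (Glyma.07G014500, chromosome 7, 1145046 to 1146554), stood at 211.3, 203.4 and 183.6 CPM in leaf with no root count, at least 1630-fold higher. VSPB and LOX7 were higher in leaf by less, at -2.29 and -2.23. LOX4, whose enzyme oxidises polyunsaturated fatty acids, stood at 511.9, 471.9 and 471 CPM in leaf and 2220, 2145 and 2157 in root (log2FC 2.17, SE 0.0829, edgeR adjusted p = 6.8e-22). LOX10 was higher in root as well, at 2.91 (SE 0.184).

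Outside these groups, the seed protein gene P34 had 156 leaf counts and none in root, at least 26.5-fold higher, while the seed storage genes GY4 and CG-3 had no count. SNAP18 and SNAP11, for vesicle-fusion proteins tied to nematode resistance, had 0.92 (SE 0.0787) and 0.47 (SE 0.113), and SNAP02 was too low to test. WRKY27, a stress-related transcription factor gene, had 1.55 (SE 0.126). The actin gene ACT11, often used as a reference, was itself higher in root, at 0.73 (SE 0.0845, edgeR adjusted p = 2.43e-09). Of all 103 named genes tested, 47 were higher in root, 51 in leaf and 5 did not pass, where 77.3% of all genes tested were called. The difference between these shares was not tested. Libraries of the tissues did not overlap for 100 of the 103, where 80.9% of all genes did not.

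Among genes without a name, the root-restricted gene with the highest level was Glyma.08G230500 (chromosome 8, 18862871 to 18864462), at 2974, 2860 and 2980 CPM. It had 3 counts in OE leaf, a fold of 47000 with an interval of 16100 to 228000. Glyma.15G119100 followed in level, with no leaf count, at least 2210-fold higher. By fold, Glyma.19G263100 (chromosome 19, 50569650 to 50575849) and Glyma.10G159600 (chromosome 10, 39390360 to 39392641) led, at least 4820-fold and 3410-fold higher in root. The first stood at 888.5, 932.8 and 895.5 CPM in root.

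On the leaf side, Glyma.07G047600 (chromosome 7, 3991009 to 3993352) led by level, at 967, 1088 and 1030 CPM with 4 root counts, a fold of 18900 with an interval of 7390 to 69400. Glyma.03G040100 followed, with a fold of 12700 and an interval of 4340 to 61500. Glyma.19G181300 and Glyma.20G188000 had no root count and were at least 2780-fold and 1560-fold higher in leaf. Only 6 genes were among the 100 highest in RPKM in both tissues. The one nearest to 0, Glyma.20G141600, stood at 1400, 1344 and 1262 CPM in leaf and 1382, 1347 and 1423 in root (log2FC 0.05, SE 0.084, edgeR adjusted p = 0.583). It was -0.003 without OE leaf replicate 3, and was called higher in root with upper-quartile scaling (0.27, edgeR adjusted p = 0.00361) and with none (0.67, 3.99e-09). The next, Glyma.07G150400, had -0.41 (SE 0.0796).

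Comparison with Jack asks how far the tissue difference of OE-34 was its own. Among 35968 genes, 24492 were called between tissues in both genotypes, 23997 of them in the same direction and 495 in opposite ones. Jack called 27956 genes (77.7%) in all, 15043 higher in root (41.8%) and 12913 in leaf (35.9%). OE-34 alone called 3327 genes and Jack alone 3464, while 4685 were called in neither. Across genes the tissue differences of OE-34 and Jack had a Pearson r of 0.951 and a Spearman rho of 0.929. Genes are not independent replicates, and the comparisons share no library but come from 1 fit. The test of the difference itself passed for 8198 genes (22.8%), and 4167 (11.6%) toward root and 4031 (11.2%) toward leaf in OE-34, and in 4690 of these the tissue difference was larger in Jack, in 3508 larger in OE-34.

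Restriction by the count rule was shared to a large part. Jack had 744 leaf-restricted and 1368 root-restricted genes. Of the OE-34 lists, 557 leaf genes (65.3%) and 1008 root genes (68.4%) were restricted in Jack too, which is 74.9% and 73.7% of Jack's lists. Nearly all genes restricted in OE-34 were called the same way in Jack, 851 of 853 and 1468 of 1473, where 35.9% and 41.8% of all genes tested were called higher in leaf and in root. Only 3 leaf and 12 root genes restricted in OE-34 had at least 30 counts in each library of the other tissue of Jack.

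Some named genes were called in opposite directions in OE-34 and Jack. LOX10 stood at 1.02, 1.46 and 1.73 CPM in OE leaf and 12.1, 9.54 and 9.99 in OE root. In Jack it stood at 32.8, 32.8 and 29.4 CPM in leaf and 10.7, 11.4 and 11.6 in root. The tissue difference was thus 2.91 in OE-34 and -1.50 in Jack, and the difference between them was 4.41 (SE 0.224, edgeR adjusted p = 3.73e-16). Root levels were close and leaf levels were not.

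The phosphate transporter gene PHT1-7 was also called in opposite directions, at 1.02, 0.975 and 0.933 CPM in OE leaf and 89.3, 106.3 and 90.8 in Jack leaf. Its root levels were 4.59, 4.44 and 5.77 CPM in OE-34 and 56.5, 54.3 and 52.4 in Jack. Unlike for LOX10, levels in both tissues were lower in OE-34. Its tissue difference differed between the genotypes by 3.14 (SE 0.215, edgeR adjusted p = 4.78e-13). PIP2-10 turned from -0.74 in Jack to 0.75. The clock genes PRR3B and ELF3A turned from 0.44 and 0.32 in Jack to -0.69 and -0.37 in OE-34, and PAL2.2 from 0.41 to -0.30. These OE-34 values depended on the scaling. With no scaling factor they were -0.07 for PRR3B, 0.25 for ELF3A and 0.32 for PAL2.2, and the difference from Jack was not run that way. PIP2-13 had -1.40 in Jack and 0.18, not past the threshold, in OE-34.

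The named genes with a called difference given next had the same direction in both genotypes. CHS7 and CHS8 were less root-bound in OE-34, by -1.48 (SE 0.149) and -1.14 (SE 0.122), and PAL3.1 by -2.96 (SE 0.388). The 4 LHY genes were less leaf-bound, by 0.50 to 0.97. LOX4 was more root-bound by 1.42 (SE 0.113). Of the 103 named genes tested, chosen with earlier results of these data known, 42 had a called difference, against 22.8% of all genes. Among oil genes it was 1 of 15, FATB1a, and among clock and flowering genes 12 of 20, and no share was tested. Genes with no count in a tissue allow no estimate of this difference, so a missing call there is no evidence either way.

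**Figure D5:**
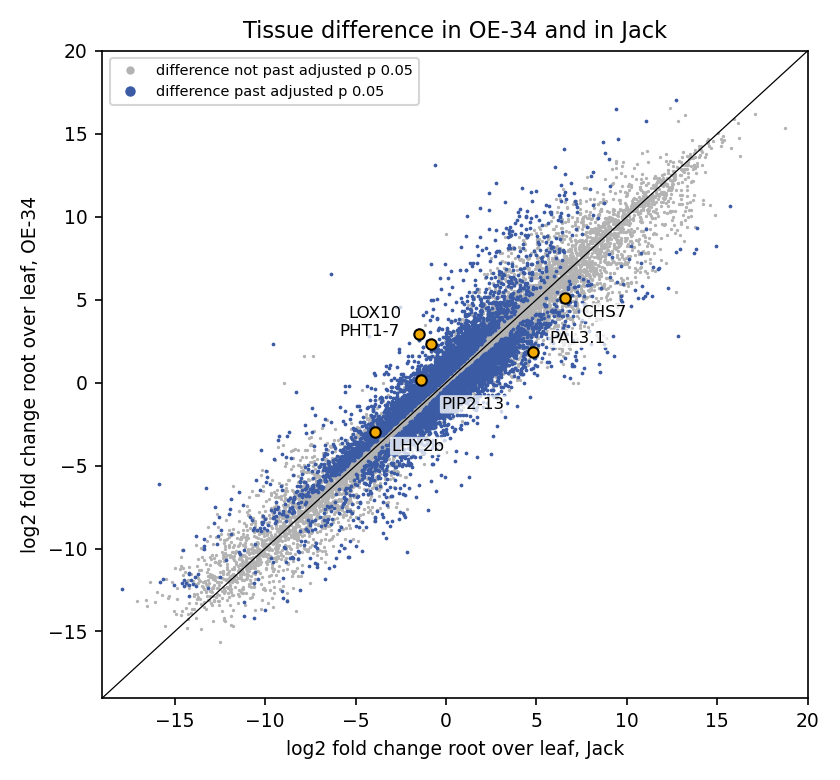
log2 fold change of root over leaf in OE-34 (vertical) against Jack (horizontal) for the 35968 genes tested, with blue points past adjusted p 0.05 in the test of the difference, grey points not past it, ringed orange points for genes named in the text, and the line of equal values. LOX10 and PHT1-7 lie above 0 in OE-34 and below 0 in Jack.

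Of genes without a name, the 2 per direction with the largest reversals are given here. Glyma.18G103500, on chromosome 18 from 11234541 to 11236613, was without a single leaf count in OE-34 and stood at 62.1, 57.9 and 59.6 CPM in OE root, at least 319-fold higher. In Jack it stood at 289.2, 273.2 and 277.8 CPM in leaf and 170.6, 172.6 and 212.8 in root. Glyma.15G070900 turned from -0.52 in Jack to 5.05 in OE-34. In the other direction Glyma.13G033400 turned from 1.25 to -5.67, and Glyma.18G086600 from 4.65 to -0.86.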

How the data were processed

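Raw counts of read pairs per gene model in 12 libraries make up the deposited table. Per the file headers, the authors ran featureCounts v2.0.1 in paired-end mode on annotation Wm82.a2.v1, which also gives the coordinates used. Which aligner they used was not given in the sources used here. Their command line names no strand setting, so a gene and an antisense partner cannot be told apart, and reads that map to several places were not counted, which makes near-identical copies uncertain. Each of the 12 columns was matched to a sample by its name, and the table has 43517 gene models, 2068 of them with no count.

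The analysis used edgeR 4.0.16 under R 4.3.3. Libraries were scaled by TMM, and filterByExpr kept 35968 genes, which hold 99.94% of the counts. A single quasi-likelihood fit to the 4 groups (8 residual degrees of freedom) gave OE root against OE leaf, Jack root against Jack leaf and the difference between them. p-values were adjusted by Benjamini-Hochberg over all genes tested, and genes under 0.05 were called. The fit was also run on simulated data in which few genes differed between the OE tissues. That run cannot show how the fit behaves where most genes differ. A 0 allows up to 3 counts, per library, and bounds and 95% exact (Clopper-Pearson) intervals cover counting error only. DESeq2 1.42.0, other scalings, no filter on low counts, other restriction limits, a replicate block and each library left out were the alternatives.

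The symbol table used for names (assembly Glycine_max_v4.0) shares 0 of the 43517 identifiers. Of 181 names written from general knowledge, 120 were kept, where a symbol of that name on the same chromosome had a genomic span within 10%, so a name rests on this match; GmZF351 was kept by its identifier. Members, names and lists were chosen with earlier results of these data known. Genes without a name follow a rule: the 2 per direction with the largest fold among called genes with at least 100 counts in every library of the high tissue, the 2 highest in RPKM among restricted genes, the 2 that differ most from Jack with opposite calls in both, and the 2 nearest to 0 among the 100 highest in both tissues.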

Additional observations from a re-analysis of the deposited data

Results flagged for a closer look

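Each result here is a gene whose tissue difference, log2FC of root over leaf, differed between OE-34 and Jack in edgeR's test of that difference, and the value given is OE-34 minus Jack, so that a value above 0 is called toward root here and one below 0 toward leaf. Of photosynthesis genes, RBCS2 had 1.05 and RCA14 -1.02. Among clock and light genes, LHY1a had 0.66, LHY1b 0.50, LHY2a 0.66 and LHY2b 0.97, all toward root. PHYA1 had -0.55, PHYA2 -0.42, PHYA3 -0.61, CRY2A -0.33, ELF3A -0.69, PRR3B -1.13 and LUXC -0.93, all toward leaf. FT5A had 3.51, on 50 leaf and 5 root counts in OE-34 against 1933 and 21 in Jack.

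In the flavonoid pathway the difference was toward leaf for PAL1.3 (-1.19), PAL2.1 (-0.54), PAL3.1 (-2.96), PAL2.2 (-0.71), PAL2.3 (-0.87), C4H (-0.36), CHS7 (-1.48), CHS8 (-1.14), CHI1A (-0.36), IFS1 (-0.56), ANS2 (-3.94) and MYB176 (-0.52). IFS2, at 0.76, was the only flavonoid gene called toward root in this test.

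Nodulation gene NSP1A had -2.01 and SS 0.87. Transporter genes with a called difference were all toward root, with NHX1 at 0.44, PHT1-2 at 1.22, PHT1-7 at 3.14, PHT1-9 at 1.08, PIP1-6 at 0.41, PIP2-10 at 1.49 and PIP2-13 at 1.58. FATB1a had -0.68, LOX4 1.42, LOX7 0.80, LOX10 4.41, WRKY27 -1.42 and ACT11 0.66.

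Without a name, Glyma.15G070900 had 5.56, Glyma.07G047600 -2.89, Glyma.13G033400 -6.92, Glyma.18G086600 -5.51 and Glyma.20G141600 -0.93. The values of 13.71 for Glyma.18G103500 and 4.31 for Glyma.19G263100 rest on libraries at 0 and depend on the prior count, so their sizes are not estimates.

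Leaving out 1 library ended the call of the difference for 10 of these genes. By edgeR adjusted p at its highest, LUXC (0.137, lacking OE root replicate 3), CHI1A (0.156, without Jack leaf replicate 1), CRY2A (0.106, without Jack leaf replicate 3), NSP1A (0.144, without OE leaf replicate 2) and ANS2 (0.234, without Jack root replicate 3) each lost it without several libraries. So did Glyma.19G263100 (0.293, without Jack leaf replicate 3), FT5A (0.247, without OE root replicate 2), PHYA3 (0.0594, without Jack leaf replicate 2) and PIP1-6 (0.0628, without OE leaf replicate 1). C4H lost it without Jack leaf replicate 2 (0.0608). With RLE scaling the calls ended for CRY2A (edgeR adjusted p = 0.0914), LUXC (0.0627), C4H (0.0535) and CHI1A (0.105). DESeq2 ended those of LUXC (Wald adjusted p = 0.0735) and CHI1A (0.0951). The replicate block ended those of CRY2A, LUXC, C4H, CHI1A and Glyma.19G263100. The difference was not run with upper-quartile scaling or without a scaling factor, and Jack leaf had TMM factors of 0.665 to 0.676.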

How the results depend on the processing

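Counts of calls moved little when 1 library was left out. For OE root against OE leaf they ran from 26860 to 27028 in all, 13832 to 13924 higher in root and 12988 to 13185 in leaf. At least 2-fold they ran from 18495 to 18614 (9365 to 9452 in root, 9107 to 9192 in leaf), at least 10-fold from 7582 to 7649 (3691 to 3805, 3828 to 3892) and at least 100-fold from 3187 to 3263 (1546 to 1645, 1596 to 1665). The difference from Jack ran from 6974 to 7980 (3585 to 4143 toward root, 3372 to 3943 toward leaf), and restricted genes from 864 to 945 in leaf and 1504 to 1619 in root. With no scaling factor 14221 genes were at least 2-fold higher in root. The restricted lists depended on their limits: with 0 counts in the other tissue they held 352 leaf and 808 root genes, with at most 10 counts 1450 and 2421, and with at least 100 in the high tissue 568 and 895.

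Directions turned for PIP1-5 with upper-quartile scaling (0.12) and, with no scaling factor, for PIP1-5 (0.52), GIa (0.13), PHYA2 (0.22), PHYB (0.40), CRY2A (0.39), ELF3A (0.25), PAL2.2 (0.32) and Glyma.07G150400 (0.21). With 1 OE library left out, Glyma.20G141600 ran from -0.003 (without OE leaf replicate 3) to 0.086 and LUXC from -0.15 (without OE root replicate 1) to 0.29, with no call. With no scaling factor PRR3B, FAD3A, FATB1b, ZF351 and Glyma.18G086600 also lost their call, and LUXC, NHX1, DGAT1C, PIP2-13 and Glyma.20G141600 gained one. Upper-quartile scaling ended those of PHYA2, PHYB, CRY2A, ELF3A and PAL2.2 and added NHX1, DGAT1C, PIP2-13 and Glyma.20G141600. RLE scaling, no filter on low counts and the replicate block on all 12 libraries each ended the PHYB call. The split of the difference from Jack moved to 58.8% toward root with RLE scaling. The labels do not say whether replicate numbers pair the samples. Deviations of leaf and root libraries with the same number correlated at -0.029, -0.1 and -0.03. Such values cannot decide it, since leaf and root of the same plant need not deviate alike. With the replicate block, 27360 genes were called on the 6 OE libraries and 27042 on all 12, and the difference from Jack passed for 6930. Depth limits the folds of genes near 0 counts, which are bounds or wide intervals.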
